A study of Homo sapiens with 2 samples.

Results

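The genes described here are 10 that write, copy, read or remove cytosine methylation: DNMT1, UHRF1, UHRF2, DNMT3A, DNMT3B, TET1, TET2, TET3, TDG and HELLS. They were chosen by name and are 10 of the 33538 genes in the count table. Their transcripts were measured by CROP-seq, in which a single-cell RNA library also reports the gRNA of each cell, in 5744 cells of A549, a lung adenocarcinoma line. The cells carried an inducible Cas9 (the inducer is given as doxycycline in the protocols and as tamoxifen in the design text) and received a lentiviral pool of 120 gRNAs, at a low multiplicity of infection (0.3). Puromycin selection for 10 to 14 days was followed by 2 days of Cas9 induction and 5 days of growth. The tested groups were cells whose only gRNA above 3 UMIs targets DNMT1 (82 cells), UHRF1 (65), DNMT3A (20), DNMT3B (35), TET1 (190), TDG (95) or HELLS (52). The control was 696 cells whose only gRNA is non-targeting, in the same line with the same Cas9. UHRF2, TET2 and TET3 had no gRNA in the library. All cells came from 1 culture and 1 library, so a pool has no replicate and no test was made between pools. Intervals are exact 95% intervals and cover counting error only, and a gRNA in a cell does not show that its target was cut.

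DNA methylation in mammals is laid down on CpG sites. DNMT3A and DNMT3B methylate unmodified sites. After replication, UHRF1 binds sites methylated on the parent strand only, and DNMT1, which it brings there, methylates the daughter strand. UHRF2 is the paralog of UHRF1, and HELLS is a chromatin remodeller that helps methylation reach packed DNA. The TET enzymes oxidise 5-methylcytosine, and TDG, a DNA glycosylase, excises the later oxidation products so that base excision repair can restore cytosine.

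The gRNA sites that the results below turn on are shown because their place in the gene differs. Each spacer was found once in its target in GRCh38, and exons are those of GENCODE 44. The NGG motif that Cas9 needs follows the spacer and is in capitals.
DNMT1_gRNA4 (chr19:10162736-10162755, minus strand, coding exon 13 of 41): cctgcagagctgccaaacggAGG
DNMT1_gRNA3 (chr19:10166642-10166661, minus strand, coding exon 11 of 41): ggagccggacagagaagccaGGG
UHRF1_gRNA2 (chr19:4910978-4910997, plus strand, coding exon 2 of 17): gatccaggagctgttccacgTGG
UHRF1_gRNA3 (chr19:4931253-4931272, plus strand, intron): acaccagtggacacagatggTGG
DNMT3B_gRNA3 (chr20:32784758-32784777, plus strand, coding exon 4 of 23): gacttgacaggcgatggcgaCGG
HELLS_gRNA3 (chr10:94562706-94562725, plus strand, coding exon 5 of 22): gatgcaagtgaagagaagccAGG
TDG_gRNA3 (chr12:103982847-103982866, plus strand, coding exon 5 of 10): tggatgatcacactctaccaGGG
TDG_gRNA4 (chr12:103984899-103984918, plus strand, coding exon 8 of 10): tttgacctacagcttgcccaAGG
TET1_gRNA4 (chr10:68686478-68686497, plus strand, coding exon 11 of 12): ggaagccaagatcaaatctgGGG
Of the 28 gRNAs against these genes, 20 had such an exact match. The other 8 (DNMT1_gRNA2, UHRF1_gRNA4, DNMT3B_gRNA4, TET1_gRNA1, TET1_gRNA2, TET1_gRNA3, HELLS_gRNA1 and HELLS_gRNA4) had none, so no GRCh38 site is given for them. The deposited records give each a start on the chromosome of its target, in a build that is not named. Shifted by the offset of the matched gRNAs of the same gene, each start would lie within its target gene. Spacers were read from the paper's supplementary gRNA list as converted to text, in which some of these 8 are longer or shorter than the matched spacers. Whether a missing match reflects that text or the gRNA itself was not tested. Whether these 8 spacers cut their target is not known here. TDG_gRNA1, TDG_gRNA2 and TDG_gRNA3 each matched a further site exactly elsewhere on chromosome 12, in the processed pseudogene TDGP1. TDG reads may therefore be shared with that copy, and TDG counts are uncertain to that extent.

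The library held 210519208 UMIs over the 5744 cells, with a median of 34625 per cell (513 to 161719). No gRNA was called in 2269 cells, 1 in 3189 and several in 286. Epithelial identity held, with a KRT18 UMI in 99.7% of cells and at least 3 of 5 epithelial markers in 91.2%. At least 2 of 4 fibroblast markers were present in 68 cells, 2 of 4 HEK293T markers in 146 and 2 of 4 blood markers in 0. Median depth was 33003 UMIs with DNMT1 gRNAs, 34507 with UHRF1, 35219 with DNMT3A, 29024 with DNMT3B, 38767.5 with TET1, 36592 with TDG and 43390.5 with HELLS gRNAs, against 33581.5 in control cells.

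All 10 genes were detected in control cells. Among the maintenance genes, DNMT1 had 1997 UMIs, or 79.4 UMIs per 1000000 UMIs (CPM; 75.9 to 82.9), and 76.0% of control cells had at least 1. Its level over 15 single non-targeting gRNAs (those in 10 or more cells) ran between 58.7 and 99.8 CPM. HELLS had 64.1 CPM (61.0 to 67.3), with a wider spread over those gRNAs of 30.7 to 126.2 CPM. UHRF1 had 12.2 CPM (10.9 to 13.7) and UHRF2 10.5 (9.30 to 11.9), each with a UMI in fewer than 30% of cells. The de novo enzymes were at 8.59 CPM for DNMT3A (7.48 to 9.81) and 2.07 for DNMT3B (1.54 to 2.71), and only 6.61% of control cells had a DNMT3B UMI. TET1 was at 4.73 CPM (3.92 to 5.66), TET2 at 3.66 (2.95 to 4.49) and TET3 at 2.86 (2.24 to 3.60), while TDG had 27.9 CPM (25.9 to 30.1). These are 3′ UMI counts, so levels of different genes are not set against each other. Every cell is of the same line, which leaves no cell type lacking these genes to measure free RNA against.

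The tie to S phase was read from PCNA, the sliding clamp of DNA replication, which is not one of the 10 genes. The 5317 cells with at least 10000 UMIs were cut into 5 quintiles by PCNA CPM, and the genes split sharply. UHRF1 stood at 2.83, 5.21, 11.2, 17.7 and 21.8 CPM in the quintiles from lowest to highest PCNA, a step up at every quintile. HELLS did the same with 17.9, 31.8, 55.5, 84.2 and 123.4 CPM, and DNMT1 with 35.3, 51.5, 76.8, 99.7 and 124.3 CPM. Highest over lowest quintile, UHRF1 was 7.72-fold (6.31 to 9.54), HELLS 6.90-fold (6.37 to 7.49) and DNMT1 3.52-fold (3.32 to 3.74). For scale, MCM2 to MCM7, the helicase subunits loaded for replication, ranged between 5.43-fold and 6.44-fold. Of the 15060 genes ranked by this ratio, UHRF1 came 76th, HELLS 105th and DNMT1 349th. Depth moved with PCNA, with a median of 40632 UMIs in the highest quintile and 30187.5 in the lowest, and its part was not tested. With every cell thinned to 10000 UMIs, and 1168 cells with at least 3 PCNA UMIs set against 1828 with 0, the ratios were 4.07 for UHRF1, 3.41 for HELLS and 2.28 for DNMT1.

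The other 7 genes did not share that pattern. DNMT3B was at 2.47 CPM in the highest quintile and 1.56 in the lowest, a ratio of 1.58 (1.14 to 2.21), without a steady order between. UHRF2 was at 11.7 and 9.15 CPM, a ratio of 1.28 (1.11 to 1.47), so the paralogs UHRF1 and UHRF2 had intervals far apart. TDG (0.98, 0.90 to 1.07) and TET2 (0.99, 0.76 to 1.29) had intervals that included 1. DNMT3A was lower in the highest quintile, at 6.89 against 9.31 CPM (ratio 0.74, 0.63 to 0.86), and so was TET1, at 3.81 against 5.54 CPM (0.69, 0.56 to 0.85). TET3 had a ratio of 0.77 (0.57 to 1.04). In non-targeting cells alone the TET1 ratio was 1.17, so its direction depends on the cells used. Of the 10 genes, 3 were at least 2-fold higher in the highest quintile, where 5.14% of all 15059 genes were. In all, 8 were past a small fold in either direction (at or below 0.8, or above by the inverse of 0.8 or more), against 44.0% of all genes, whose median ratio was 1.00.

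**Figure D1:**
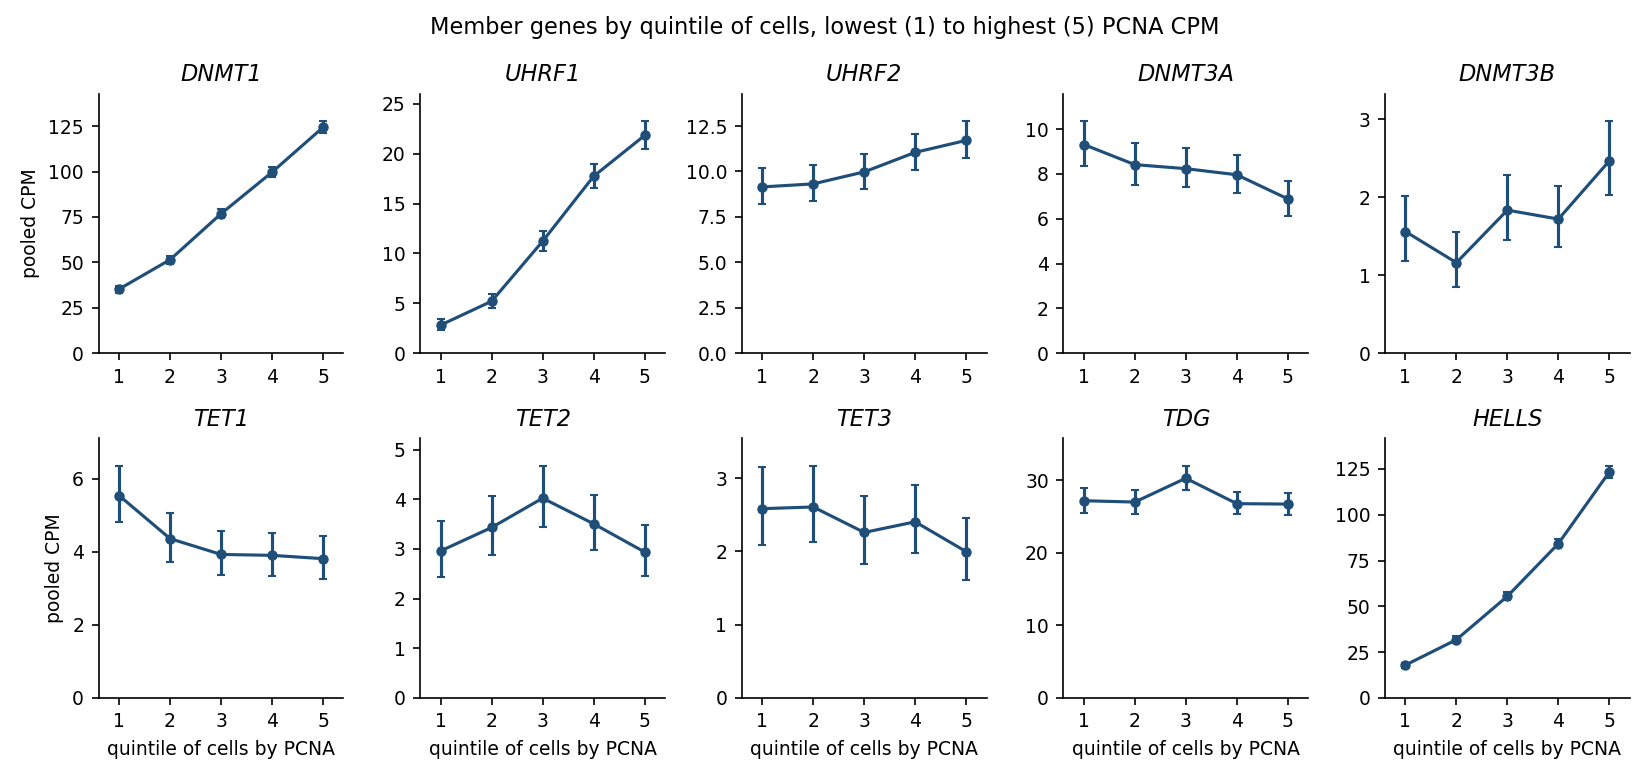
Pooled CPM (vertical axis, starting at 0 and scaled per gene) of each of the 10 genes in the quintiles of 5317 cells ordered by PCNA CPM (horizontal axis, 1 lowest and 5 highest), with exact 95% Poisson intervals. DNMT1, UHRF1 and HELLS climb at every quintile, TDG stays between 26.7 and 30.3 CPM, and DNMT3A and TET1 are lowest in the top quintile.

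A second marker set separated S phase from division. Cells were called G2/M-high when their summed CPM of 12 mitotic genes lay in the top quintile (1063 cells), PCNA-high when PCNA lay in the top tertile and they were not G2/M-high (1331 cells), and the rest otherwise (2923 cells). These are ranges of a score and not cell types, and 449 cells lay within 10% of the PCNA threshold and 174 within 10% of the G2/M one. HELLS was at 117.2 CPM in PCNA-high, 75.6 in G2/M-high and 33.7 in remaining cells. UHRF1 was at 22.6, 13.9 and 6.29 CPM in the same order. Both were thus lower in G2/M-high than in PCNA-high cells, with ratios of 0.64 (0.62 to 0.67) for HELLS and 0.61 (0.56 to 0.67) for UHRF1. DNMT1 was nearly level across these classes, at 115.8 CPM in PCNA-high and 111.1 in G2/M-high cells (ratio 0.96, 0.92 to 0.99), against 47.4 CPM in the rest. DNMT3B had its highest level in G2/M-high cells, at 2.72 CPM, against 1.77 in PCNA-high and 1.35 in remaining cells, and G2/M-high over PCNA-high was 1.53 (1.17 to 2.02). TET1 was lowest in G2/M-high cells, at 3.06 CPM, against 4.39 in PCNA-high and 4.74 in remaining cells. TDG was at 30.2 CPM in G2/M-high, 26.3 in PCNA-high and 27.1 in remaining cells, and G2/M-high over PCNA-high was 1.15 (1.06 to 1.23). Single non-targeting gRNAs spanned more than these classes for TDG (20.3 to 32.4 CPM), and also for DNMT3B (0 to 5.76) and TET1 (1.70 to 7.79).

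**Figure D2:**
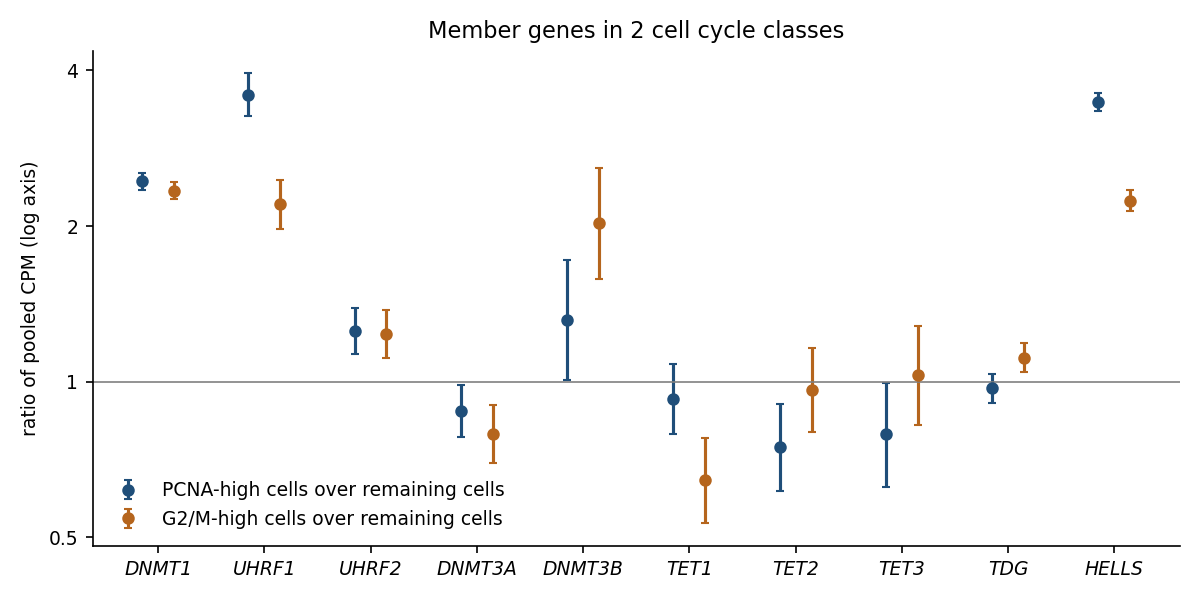
Ratio of pooled CPM to the remaining 2923 cells (vertical log axis) for the 10 genes, in PCNA-high cells (blue) and G2/M-high cells (brown), with exact 95% intervals. UHRF1 and HELLS are higher in PCNA-high than in G2/M-high cells (3.59 and 2.20 for UHRF1, 3.48 and 2.24 for HELLS), while DNMT1 is close in both (2.44 and 2.34).

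Cell by cell, the genes with the highest correlation to each of the 3 members with at least 20 CPM were sought among 7129 genes, over the 5317 cells thinned to 10000 UMIs. All points share 1 library. HELLS was nearest to ATAD2 (Pearson r 0.34), the histone gene HIST1H4C (0.34) and FEN1 (0.34), the flap endonuclease of lagging-strand synthesis. DNMT1 was nearest to the tubulin gene TUBA1B (0.32), the histone variant gene H2AFZ (0.29) and CKS1B (0.29), a cofactor of cyclin-dependent kinases. For TDG the highest was 0.07, with MARCKSL1, too weak to read. With PCNA itself r was 0.31 for HELLS (13th of 7128 genes), 0.25 for DNMT1 (55th), 0.17 for UHRF1 (192nd) and 0.00 for TDG. Among pairs of the 10 genes the highest values were 0.22 for HELLS with DNMT1, 0.18 for HELLS with UHRF1 and 0.13 for UHRF1 with DNMT1, and every other pair rounded to 0.05 or less in these sparse counts.

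Promoter letters were set beside that pattern. The windows run over 250 bases before and 50 after each RefSeq start in GRCh38.p14, and were searched on both strands for TTTCCCGC, TTTCGCGC, TTTGCCGC and TTTGGCGC, the common E2F letters, E2F being the factor family of S phase genes. These letters were present in the only window of DNMT1 and of HELLS and in 2 of 3 windows of UHRF1. PCNA held them in 1 of 2 windows. No match was found in the windows of UHRF2, DNMT3A, DNMT3B, TET1, TET2, TET3 or TDG, and 3.31% of all 35116 windows held one. The only DNMT3B window began at chr20:32779602, while the gene begins at 32762385 in the annotation used for exons. The region at that upstream start was not searched, so the DNMT3B result covers this window only. The annotated starts of DNMT1, UHRF1 and HELLS also lay outside their windows. The 3 genes with the PCNA pattern are shown with the matches in capitals, 5′ to 3′ on the gene's strand.
DNMT1 (chr19:10194904-10195203, minus strand): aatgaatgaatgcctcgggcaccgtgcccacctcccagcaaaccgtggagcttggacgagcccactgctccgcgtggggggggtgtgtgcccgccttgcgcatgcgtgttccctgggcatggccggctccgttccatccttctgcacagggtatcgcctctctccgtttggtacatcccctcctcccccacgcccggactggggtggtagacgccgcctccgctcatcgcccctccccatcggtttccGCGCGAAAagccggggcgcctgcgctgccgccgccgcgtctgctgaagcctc
UHRF1 (chr19:4909251-4909550, plus strand): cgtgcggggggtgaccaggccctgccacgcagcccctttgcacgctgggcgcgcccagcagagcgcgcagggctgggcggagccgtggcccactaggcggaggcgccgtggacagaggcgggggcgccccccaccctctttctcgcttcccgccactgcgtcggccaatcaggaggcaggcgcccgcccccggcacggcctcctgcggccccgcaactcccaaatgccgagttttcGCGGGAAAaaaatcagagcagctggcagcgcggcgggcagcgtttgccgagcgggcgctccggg
HELLS (chr10:94545538-94545837, plus strand): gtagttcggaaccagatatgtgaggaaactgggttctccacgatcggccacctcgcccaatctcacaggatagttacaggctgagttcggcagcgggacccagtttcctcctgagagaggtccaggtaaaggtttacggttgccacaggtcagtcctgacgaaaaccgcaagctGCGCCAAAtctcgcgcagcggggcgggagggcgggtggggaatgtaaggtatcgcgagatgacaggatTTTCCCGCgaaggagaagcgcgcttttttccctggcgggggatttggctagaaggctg
The match in DNMT1 began 2 bases before the start and that in UHRF1 14 before it, while the pair in HELLS began 76 and 8 before it. The letters TTTGAA of the CHR element, known from genes of late cell cycle, were present in 1 window of TET2 and 1 of DNMT3A and in 15.2% of all windows. A match of letters is not evidence of binding, and a missing match says nothing of the factor.

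With its own gRNAs, each gene was read against the same 696 control cells, which all 7 pools share. DNMT1 was at 54.9 CPM in cells with DNMT1 gRNAs, against 79.4 CPM in control cells, or 69.1% of control (58.0 to 81.9). That lay below all 15 single non-targeting gRNAs (73.4% to 127.3% of the other control cells) and below DNMT1 in the pools of all 18 other targets. The lowest of those 18 was the RPL18 pool, at 76.7%. Among the pools of the members, DNMT1 was about as low with DNMT3B gRNAs, at 68.3% (51.8 to 88.5). A low DNMT1 value was therefore not particular to DNMT1 gRNAs. TDG was at 22.7 CPM in its pool, against 27.9 in control cells, or 81.3% (64.0 to 102.1), lower than in the 18 pools of other targets. It was lower still with 4 of the 15 non-targeting gRNAs and in the DNMT1, DNMT3A and DNMT3B pools, so a low TDG value was not particular to TDG gRNAs. UHRF1 was at 9.11 CPM in its pool and 12.2 in control cells, or 74.4% (46.0 to 114.7) from 22 UMIs. HELLS was at 59.6 CPM in its pool and 64.1 in control cells, or 93.0% (77.6 to 110.5), and TET1 at 4.81 and 4.73 CPM, or 101.8% (68.1 to 148.9). In the TET1 pool 71, 69 and 3 of the 190 cells carried TET1_gRNA1, TET1_gRNA2 and TET1_gRNA3, which had no exact genomic match. The own and cross values of this pool thus rest mostly on these gRNAs. DNMT3A (4 UMIs, 6.08 expected at the control level) and DNMT3B (1 UMI, 2.25 expected) were too sparse for a difference to be detectable. Only the DNMT1 interval lay wholly below control.

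Single gRNAs of 1 target gave different values, though most intervals overlapped. DNMT1 was at 59.4% of control with DNMT1_gRNA2, which had no exact genomic match (34.5 to 95.3, 11 cells). With DNMT1_gRNA4 it was at 65.9% (53.1 to 81.0, 60 cells) and with DNMT1_gRNA3 at 89.4% (61.4 to 126.0, 11 cells). No cell carried DNMT1_gRNA1. HELLS_gRNA4, again without an exact match, stood at 66.3% for HELLS (48.5 to 88.6, 26 cells), while HELLS_gRNA3, with its site in exon 5, stood at 106.7% (82.4 to 136.0, 21 cells). UHRF1_gRNA3, whose site is intronic, was at 53.7% for UHRF1 (23.0 to 107.2, 29 cells), and the exonic UHRF1_gRNA2 at 111.0% (60.0 to 189.1, 31 cells). Both intervals included control, and the lower value belonged to the site that is intronic in the model of 17 exons used here. For TDG the value was 63.2% with gRNA4 (27.2 to 125.3), which had no exact match in the pseudogene. It was 75.5% with gRNA3 (51.9 to 106.5) and 93.8% with gRNA2 (66.1 to 129.5). TET1_gRNA2 was at 62.0%, TET1_gRNA1 at 100.7% and TET1_gRNA4 at 174.6% (92.7 to 304.7) for TET1. Of 15 gRNAs with at least 10 cells, 11 were below control and 3 had intervals wholly below it, of which only DNMT1_gRNA4 had an exact genomic match. The 11 include DNMT3A_gRNA3 (2 UMIs, 3.21 expected) and DNMT3B_gRNA3 (1 UMI, 1.56 expected), too sparse for a difference to be detectable. For scale, among 78 values of the members with single non-targeting gRNAs, 4 intervals lay wholly below control and 5 above.

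**Figure D3:**
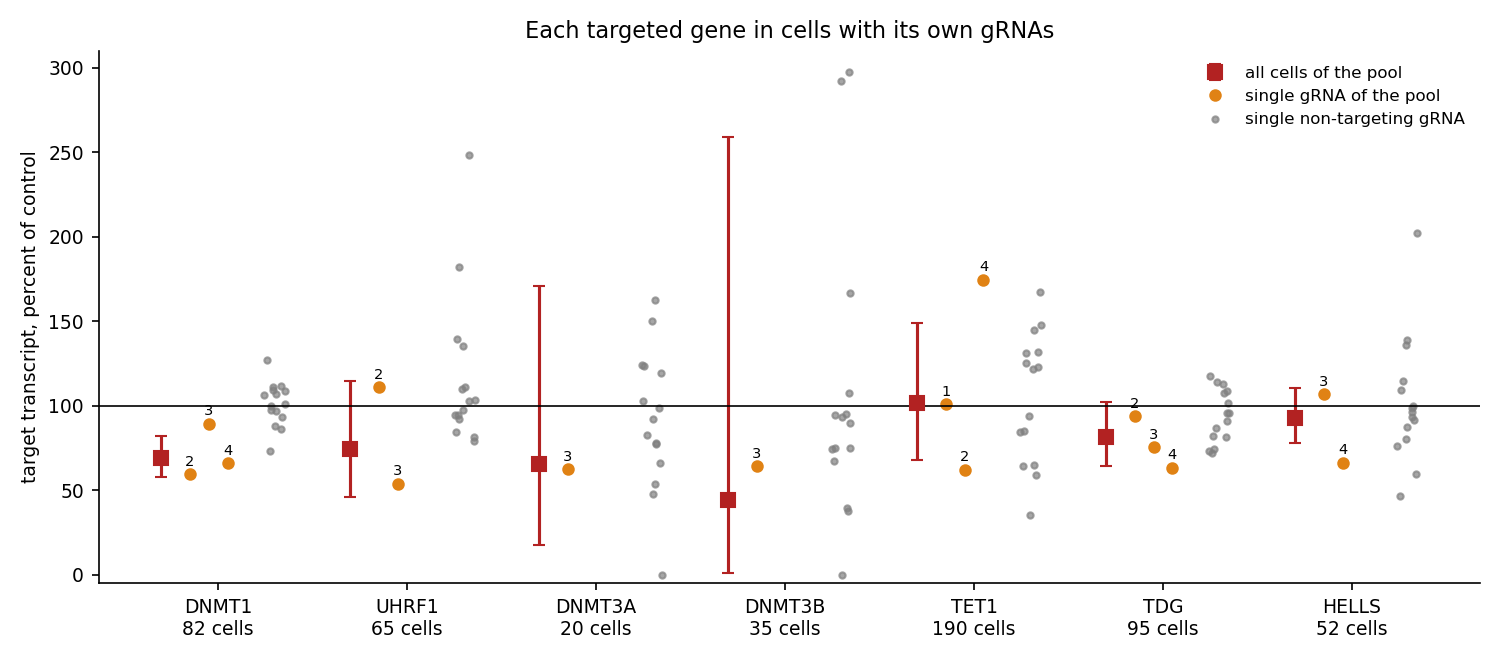
Level of each targeted gene in cells with its own gRNAs, as percent of its level in the 696 non-targeting cells (vertical axis). Red squares with exact 95% intervals are whole pools, orange points single gRNAs with at least 10 cells (digit, gRNA number) and grey points single non-targeting gRNAs against the other control cells. The DNMT1 square, at 69.1%, lies below every grey point of its column.

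The 60 cells with DNMT1_gRNA4 were not uniform. In 14 of them at least 2 of VCX, PAGE2B, MAGEA4 and SPANXB1 had UMIs, germline genes of the X chromosome that somatic cells normally keep methylated and silent. These genes were chosen from earlier results of these data, so the split is a description. No control cell, no cell without a gRNA and no cell with DNMT1_gRNA2 or DNMT1_gRNA3 met that rule. In the 14 cells DNMT1 had 1 UMI where 36.2 were expected (2.77% of control, 0.07 to 15.4). At matched depth 1 of 14 such cells (7.14%) had a DNMT1 UMI, against 42 of 57 other DNMT1 gRNA cells (73.7%) and 356 of 487 control cells (73.1%). The remaining 68 cells of the pool were at 83.0% of control for DNMT1 (69.6 to 98.3), and those with DNMT1_gRNA4 at 87.0% (70.0 to 107.0, 46 cells).

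The other genes in the 14 cells had intervals that included control. HELLS had 26 UMIs and TDG 12, against 29.2 and 12.7 expected, or 89.1% (58.0 to 131.0) and 94.3% (48.5 to 165.7) of control. UHRF1 and UHRF2 had 9 UMIs each, against 5.58 and 4.80 expected, or 161.4% (73.1 to 310.4) and 187.6% (84.8 to 361.5). UMIs of the maintenance partners were thus present in cells with nearly no DNMT1 UMI, within wide intervals. Of the 14 cells 10 were in neither cycle class, 1 was PCNA-high and 3 were G2/M-high, against 350, 156 and 144 of 650 control cells. PCNA was at 79.2% of control (59.6 to 103.3), the MCM2 to MCM7 sum at 118.2% (100.9 to 137.7) and the G2/M sum at 136.4% (127.0 to 146.3), but 1 cell held 269 of its 804 UMIs. These cell cycle sums move with the split, and their part was not tested. Among other cells with 1 gRNA or none, 1 cell met the rule, with UHRF1_gRNA2, and it had 2 UHRF1 UMIs and 5 DNMT1 UMIs.

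**Figure D4:**
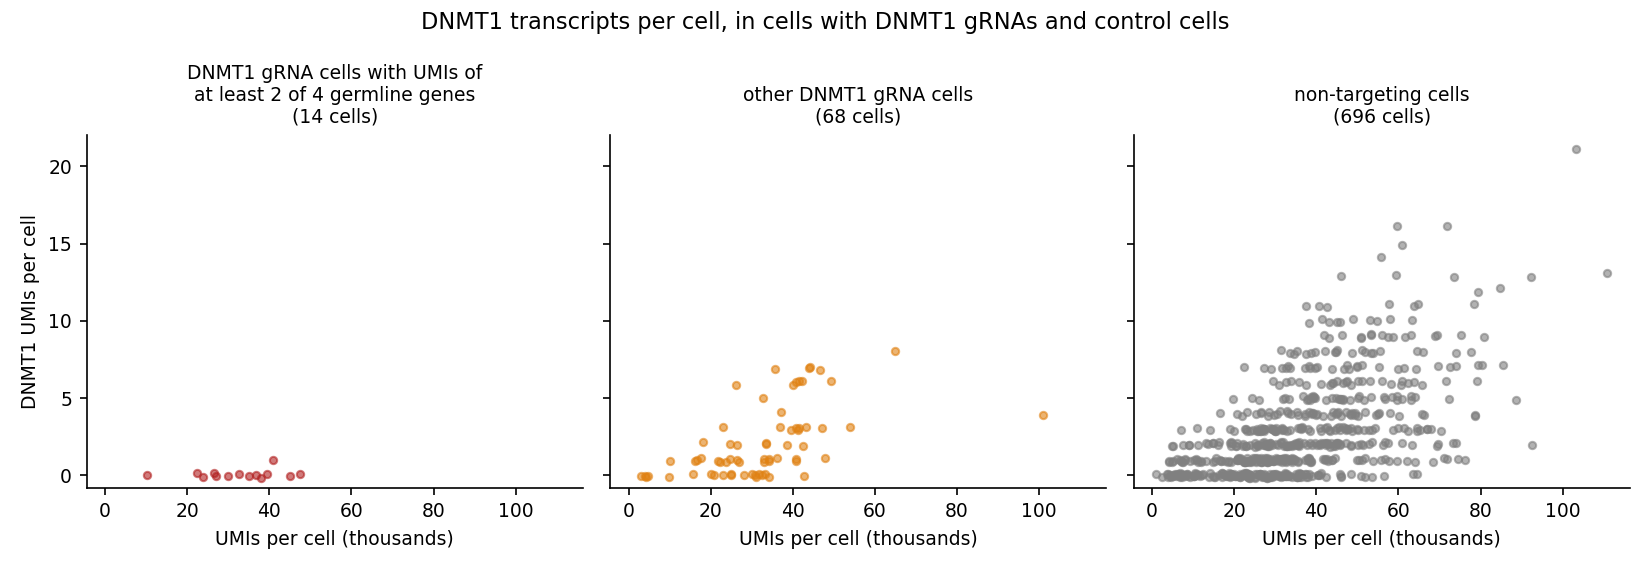
DNMT1 UMIs per cell (vertical axis, points spread slightly) against all UMIs of the cell (horizontal axis), for the 14 DNMT1 gRNA cells with UMIs of at least 2 of 4 germline genes, the other 68 DNMT1 gRNA cells and the 696 non-targeting cells. Of the 14 cells 13 sit at 0, at depths where most control cells have at least 1.

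Within cycle classes, DNMT1 in its pool was at 83.7% of control in PCNA-high cells (64.6 to 107.0), 52.1% in G2/M-high cells (35.4 to 74.2) and 69.3% in the rest (49.2 to 95.2). After thinning to 10000 UMIs, which left out 6 pool cells and 46 control cells, 65.8% of the pool (54.0 to 76.3; 50 of 76) and 53.2% of control cells (49.3 to 57.1; 346 of 650) had no DNMT1 UMI. Unthinned, the shares were 40.2% and 24.0%.

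Cross effects were read as the other members in each pool, in 43 combinations with at least 10 UMIs expected at the control level. Of these 4 had intervals wholly below control and 1 above. For scale, the same reading gave 4 below and 5 above among 78 values of single non-targeting gRNAs, and 11 below and 3 above among 147 values of the 18 other target pools. The combinations share their control cells and, within a pool, their cells.

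The pool with most such values was DNMT3B, with 35 cells. DNMT1 was at 54.2 CPM with DNMT3B gRNAs, against 79.4 in control cells, or 68.3% (51.8 to 88.5), below all 15 non-targeting gRNAs and all 18 other pools. HELLS was at 37.7 CPM there and 64.1 in control cells, or 58.8% (42.0 to 80.1), with 1 of 15 non-targeting gRNAs lower, and UHRF1 at 52.5% (20.9 to 109.6) from 7 UMIs. UHRF2 went the other way, at 19.3 CPM and 10.5 in control cells, or 183.2% (111.5 to 285.9), above all 15 non-targeting gRNAs and all 18 other pools. The 3 genes that climbed with PCNA thus all had values below control in this pool, but not only there. With RPL18 gRNAs DNMT1 was at 76.7%, HELLS at 65.9% and UHRF1 at 62.7%, and with MVD gRNAs at 81.9%, 66.4% and 67.6%. In the DNMT3B pool PCNA itself was at 90.4% of control (76.3 to 106.5) and the MCM2 to MCM7 sum at 95.2% (84.9 to 106.3). The G2/M sum was at 61.1% (57.0 to 65.3), and 3 of 32 cells (9.38%) were G2/M-high, against 144 of 650 control cells (22.2%). Reweighted to the class shares of control cells, DNMT1 was at 70.5%, HELLS at 70.5%, UHRF1 at 57.0% and UHRF2 at 180.7%. In the 22 cells with DNMT3B_gRNA3 alone, DNMT1 was at 63.5% (44.8 to 87.5), HELLS at 66.3% (45.2 to 94.0) and UHRF2 at 138.6% (68.4 to 252.1). The 7 cells with DNMT3B_gRNA4 had DNMT1 at 129.3% (68.7 to 221.7) and UHRF2 at 374.9% (120.7 to 885.9) from 5 UMIs. Without DNMT3B_gRNA3 the 13 remaining cells put UHRF2 at 283.5% and HELLS at 41.9%.

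In the HELLS pool UHRF1 was at 7.23 CPM, against 12.2 in control cells, or 59.1% (34.0 to 96.2), lower than in all 15 non-targeting gRNAs and all 18 pools of other targets, though not than in the DNMT3B pool. Both larger gRNAs had a value below control, HELLS_gRNA3 at 57.5% (22.9 to 119.8) and HELLS_gRNA4 at 51.7% (20.6 to 107.8), although only the second had low HELLS. PCNA was at 113.3% of control in this pool (102.0 to 125.6) and DNMT1 at 98.6% (84.3 to 114.7). In the TET1 pool DNMT3B had 6 UMIs where 15.5 were expected, or 38.8% (13.6 to 90.3), but 2 of 15 non-targeting gRNAs and 4 of 18 other pools were lower. DNMT3B over all cells was at 1.76 CPM, against 2.07 in the control cells. TET2 and TET3 in the TET1 pool were at 117.0% (75.7 to 176.7) and 107.5% (64.1 to 173.9), and no difference of the TET1 paralogs was detectable at this depth.

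The pools of DNMT1 and UHRF1 gRNAs concern the maintenance partners. With DNMT1 gRNAs UHRF1 was at 98.9% of control (66.5 to 142.6) and HELLS at 112.8% (96.6 to 131.2). Without DNMT1_gRNA4 the UHRF1 value was 49.5% (15.9 to 116.7), from 5 UMIs in 22 cells, so it rests on that gRNA. With UHRF1 gRNAs DNMT1 was at 98.1% (84.0 to 113.9), HELLS at 100.8% (85.0 to 118.9) and UHRF2, the paralog, at 70.8% (41.3 to 114.0). With DNMT1 gRNAs the de novo enzyme DNMT3A was at 61.7% (33.2 to 105.8), below all 18 other pools but not 3 of 15 non-targeting gRNAs, and TDG at 79.9% (60.2 to 104.3), both intervals including control. DNMT3B had 1 UMI in that pool where 5.46 were expected. With TDG gRNAs UHRF1 was at 81.7% (56.5 to 115.2), UHRF2 at 79.6% (53.0 to 115.7) and HELLS at 89.5% (77.2 to 103.3), with the G2/M sum at 82.4% of control (79.7 to 85.1). With DNMT3A gRNAs TDG was at 65.7% (34.8 to 113.1) and HELLS at 121.2% (90.9 to 158.6) in 20 cells. Without DNMT3A_gRNA3 that TDG value was 32.1%.

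**Figure D5:**
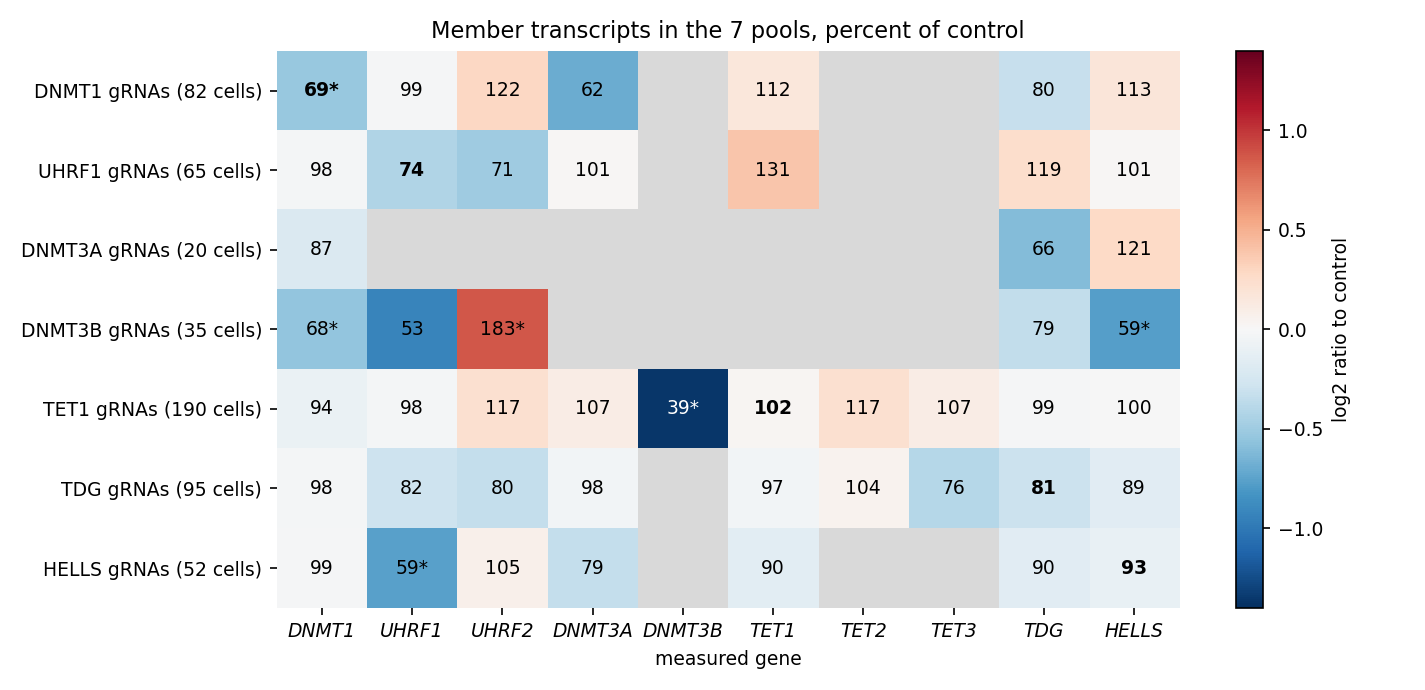
Percent of control (number in each cell) for the 10 genes (columns) in the 7 gRNA pools (rows), coloured by log2 ratio to control. Bold marks the targeted gene, an asterisk a 95% interval that leaves out 100%, and grey fewer than 10 UMIs expected. The DNMT3B row holds DNMT1 at 68, HELLS at 59 and UHRF2 at 183.

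Counted by the same fold (at or below 0.8 of control, or above by its inverse or more), 3 of 7 measured members were past it with DNMT1 gRNAs, where 24.5% of all 10175 measured genes were. The count was 3 of 7 with UHRF1 gRNAs (21.8% of genes), 1 of 3 with DNMT3A (31.0%), 5 of 5 with DNMT3B (30.6%), 1 of 10 with TET1 (14.1%), 2 of 9 with TDG (18.2%) and 2 of 7 with HELLS gRNAs (22.0%). The targeted gene is in the count for DNMT1 and UHRF1. All 5 members measured in the DNMT3B pool were past the fold, in both directions, and this pool was among the smallest. Without a minimum of expected UMIs all 10 were.

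Other genes of the pathway, in 5 lists of 33 genes, were counted the same way. With DNMT1 gRNAs 6 of 33 were low and 3 high, at a median of 98.8% of control beside 100.5% over all genes, of which 14.0% were low and 10.5% high. AHCY, which clears the product of methyl transfer, was at 76.8% (67.7 to 86.7), and the CpG reader ZBTB4 at 64.6% (42.0 to 95.4). With UHRF1 gRNAs 1 was low and 6 high, 4 of these among the 8 methyl-CpG readers, whose median was 124.1% beside 99.7% over all genes. Over all genes 12.4% were low and 9.40% high in that pool. ZBTB38 was at 131.3% (116.8 to 147.2), MBD2 at 128.6% (109.2 to 150.7) and MBD3 at 127.8% (99.7 to 161.8). With TDG gRNAs 5 were low and 0 high, where 9.51% of all genes were low and 8.67% high. Of the 5, 3 were among the 9 genes of base excision repair and included the scaffold XRCC1 at 75.7% (60.0 to 94.4) and the ligase LIG3 at 73.0% (53.2 to 98.1). With HELLS gRNAs 8 were low and 1 high, where 14.4% of all genes were low and 7.59% high. Low base excision repair genes were not confined to the TDG pool. Of those measured, 4 of 9 were low with HELLS gRNAs, 2 of 9 with DNMT1 and 2 of 7 with DNMT3B gRNAs. With UHRF1, DNMT3A or TET1 gRNAs 0 were low. With DNMT3B gRNAs 9 of 29 were low and 1 high (19.7% and 10.9% of all genes), and with DNMT3A 6 of 26 low and 4 high (19.5% and 11.5%). With TET1 gRNAs 1 of 33 was low, MBD1 at 77.6% (55.5 to 106.7), where 7.93% of all genes were low.

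Over all 15059 genes, 5.14% were at least 2-fold higher in the highest than in the lowest PCNA quintile. Of 5 partners of DNMT1, UHRF1 and HELLS (PCNA left out), 4 reached this. They were the DNA ligase LIG1 (4.74-fold), the PCNA-binding factor PCLAF (3.97-fold), CDCA7L (2.71-fold) and CDCA7 (2.37-fold), while the deubiquitinase USP7 was at 1.24-fold. None of the 8 methyl-CpG readers reached 2-fold. Among 9 base excision repair genes 1 did, the glycosylase NEIL3, at 16.4 CPM in the highest quintile and 1.45 in the lowest (11.3-fold, 8.58 to 15.2). Among 5 methyl donor genes 1 did, MTHFD1 of folate metabolism (2.11-fold). XRCC1 was at 1.86-fold (1.70 to 2.03), PARP1 at 1.77-fold (1.70 to 1.84) and NEIL1 at 0.60-fold (0.48 to 0.74), so the repair list did not behave as 1 group. TDG itself was at 0.98-fold.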

How the data were processed

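The counts are whole-number UMI counts per gene and cell, and gRNA UMI counts per cell, as deposited. The authors counted them without normalization in Cell Ranger 3.1.0, aligned to GRCh38; the submitters' processing notes also name R 4.2.0 and Seurat 4.1.0. All 5744 barcodes were kept, and no doublet caller was run beyond leaving out cells with several gRNAs. A gRNA was called above 3 UMIs, and cells with exactly 1 were pooled by target. UMIs were summed per pool and divided by the pool's total (CPM). Ratios have exact conditional binomial 95% intervals, levels exact Poisson ones and shares Clopper-Pearson ones. They cover counting error only. With 1 sample, no p-value is given.

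PCNA and cell cycle classes used cells with at least 10000 UMIs. Thinning drew 10000 UMIs per cell (seed 1). The genes named in the text are the 10 members, PCNA, MCM2 to MCM7, the 3 most correlated genes of members with at least 20 CPM, pathway genes past the small fold with at least 30 expected UMIs, and 4 germline genes; pathway genes named in the PCNA comparison were picked knowing their values. The members and lists were chosen with earlier results of these data known. Spacers, read from the paper's supplementary gRNA list as converted to text, were matched to GRCh38, and exons are from GENCODE 44. The ratios and intervals were tested on simulated Poisson counts, the model that the intervals assume. That test does not cover spread between cells or between gRNAs. Alternatives changed the gRNA call, depth, reference, averaging, pseudocount, S phase marker and gRNAs, one at a time, except that thinning to 10000 UMIs also changed the PCNA classes. Python 3.11.15, NumPy 2.4.6, SciPy 1.17.1, pandas 2.3.3, scikit-learn 1.9.0 and matplotlib 3.10.9 were used.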

Additional observations from a re-analysis of the deposited data

How the results depend on the processing

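Own-gRNA levels moved little with the gRNA call, depth minimum, reference or pseudocount. The exceptions were HELLS, at 73.2% of control when standardised to the PCNA classes, and DNMT1, at 83.0% without the 14 germline-positive cells, an alternative chosen after seeing the data, as was the standardisation to 3 cell cycle classes. Leaving out 1 gRNA at a time gave 64.8% to 76.3% for DNMT1, 47.2% to 95.4% for UHRF1, 37.9% to 93.2% for DNMT3A, 0% to 50.8% for DNMT3B, 80.4% to 124.6% for TET1, 72.9% to 85.8% for TDG and 82.9% to 116.6% for HELLS. HELLS was at 116.6% without HELLS_gRNA4 and DNMT3B at 0% without DNMT3B_gRNA3. Among cross effects, TET1 in the UHRF1 pool ranged between 88.2% (without UHRF1_gRNA3) and 152.7% (without UHRF1_gRNA2), and TET3 in the TDG pool between 63.3% (without TDG_gRNA2) and 100.5% (without TDG_gRNA3), so both changed direction. UHRF1 in the DNMT1 pool was at 49.5% without DNMT1_gRNA4. The causes were not tested.

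Without a minimum of expected UMIs, 5 members were past the fold with UHRF1 gRNAs, 7 with DNMT3A, 10 with DNMT3B and 5 with HELLS. With 1 CPM added, 0 were with TDG and 1 with HELLS gRNAs. The PCNA ratios kept their direction for DNMT1, UHRF1 and HELLS but not their size. Thinning also changed the classes, to cells with 0 against at least 3 PCNA UMIs. DNMT1 was at 2.28 when thinned, 4.77 by MCM2 to MCM7, 3.07 in non-targeting cells and 2.89 by tertiles. UHRF1 was at 4.07, 15.4, 10.3 and 5.60 under the same settings, and HELLS at 3.41 when thinned, 11.9 by MCM2 to MCM7 and 4.88 by tertiles. TET1 turned to 1.17 in non-targeting cells. Depth limits DNMT3B, TET2 and TET3 most, with under 10 UMIs expected in most pools. No paired analysis between gRNA pools was possible because all cells came from 1 culture without replicates.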

Other observations

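Cells with several gRNAs, one of them against a member, were in no comparison. In 9 such cells with a DNMT1 gRNA, DNMT1 was at 77.0% of control (52.2 to 109.7), and in 14 with a HELLS gRNA, HELLS was at 74.4% (51.0 to 104.9). TDG was at 145.5% (66.3 to 277.9) in 5 cells, TET1 at 66.6% (13.5 to 199.3) in 18, and UHRF1 had 1 UMI in 6 cells where 3.25 were expected.

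The 2269 cells without a called gRNA had DNMT1 at 104.8% of the non-targeting level (99.7 to 110.3), HELLS at 106.3% (100.5 to 112.4), UHRF1 at 108.0% (upper limit 123.1) and PCNA at 109.5% (105.6 to 113.5). TDG was at 98.1% (90.1 to 107.0), DNMT3A at 97.6% (83.5 to 114.3) and TET1 at 89.8% (72.6 to 111.6).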
